A study of Homo sapiens with 32 samples.

Results

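The data compare the split of each RNA between nucleus and cytoplasm in an IGF2BP2 knockout clone and a control of HEK293T cells. IGF2BP2 is an RNA-binding protein, and HEK293T is a widely used line derived from human embryonic kidney. The samples were chosen by their labels: the nuclear and the cytoplasmic library of 2 IGF2BP2 knockout cultures and of the 2 control cultures from the same batches (3 and 4), which is 8 of the 32 samples of the series. The knockout came from short-lived transfection with plasmids that stay outside the genome and carry 3 guide RNAs for IGF2BP2 together with GFP. A single cell that glowed green was grown into a colony, and 1 such clone was used, so the 2 knockout cultures repeat the measurement of that clone. The control cells had received a guide RNA that matches no mammalian gene, and all cells were otherwise untreated. The labels do not say whether the control was a clone or a pool. With 1 clone, the loss of IGF2BP2, other traits of that clone and its fraction preparations cannot be told apart. Nuclear and cytoplasmic RNA were separated with a commercial kit, and poly(A) RNA was sequenced with stranded paired reads. The nuclear and cytoplasmic libraries of an IGF2BP3 knockout clone from batches 3 and 4 entered the fit for the estimate of spread and for a direct comparison, and the control of batches 1 and 2 gave each gene's ratio in unedited cells.

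IGF2BP proteins bind mRNAs, many of them carrying N6-methyladenosine, and are known for holding bound mRNAs in cytoplasmic granules and for shielding them from decay. Most mRNAs are exported once spliced, whereas several long noncoding RNAs, such as MALAT1 and NEAT1, stay in the nucleus, and some mRNAs of splicing regulators are held there with unspliced introns. Messages for secreted and membrane proteins are translated on the endoplasmic reticulum, whose membrane is continuous with the outer nuclear envelope, and RNAs encoded by mitochondrial DNA are made and kept inside mitochondria.

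The 8 libraries held 13689067 to 24499210 counts (median 19482600). IGF2BP2 mRNA itself was lower but present in the knockout libraries. In cytoplasmic RNA it stood at 82.4 and 83.2 CPM (counts scaled to the library total) in the control and at 36.9 and 39.1 CPM in the knockout of batches 3 and 4. In nuclear RNA the values were 58.2 and 62.5 CPM in the control against 25.9 and 23.5 CPM. Both fractions thus carried the drop, and no knockout library overlapped a control library. Of 10 HEK293T marker genes, 9 were above 1 CPM in both fractions of both groups. Their summed level ran from 1296 to 1311 CPM in control and from 1227 to 1238 CPM in knockout cytoplasm, and from 956 to 982 CPM in control and from 1242 to 1261 CPM in knockout nuclei. The summed level of 10 markers of other cell types (blood, endothelial, liver and fibroblast genes) was 20.9 to 24.5 CPM in control and 20.5 to 22.9 CPM in knockout cytoplasm, and 33.6 to 38.9 CPM in control and 35.9 to 37.1 CPM in knockout nuclei.

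For each culture the log2 ratio of nuclear over cytoplasmic RNA was taken from CPM scaled by the trimmed mean of M values (TMM), which puts the typical gene near 0. A ratio therefore ranks a gene against other genes and does not give the share of its molecules in the nucleus. The ratio change is the log2 ratio in the knockout minus that in the control, tested by edgeR with both members of a batch paired, and the threshold for a call was an adjusted p under 0.05 (Benjamini-Hochberg, over all 18902 genes tested). The p-values rest on a spread pooled over cultures of the control, the IGF2BP2 knockout clone and the IGF2BP3 knockout clone. That spread was borrowed largely across genes (2 residual and 34.0 prior degrees of freedom). A small p-value therefore does not stand for many replicate cultures, and it does not measure the spread between clones. In bulk RNA, a shift in every cell and a larger shift in some cells cannot be told apart.

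Nuclear and cytoplasmic RNA were less different from each other in the IGF2BP2 knockout than in the control. Over the 10493 genes that averaged 10 CPM or more, the SD of the log2 ratio across genes was 0.559, 0.612, 0.690 and 0.623 in control cultures 1 to 4. It was 0.461 and 0.465 in the 2 knockout cultures, below every control culture. The IGF2BP3 knockout cultures lay at 0.545 and 0.566, and these values overlapped the lowest control culture. Over all 18902 genes both knockouts lay below every control culture. The SD was 0.904 to 1.06 in the control, 0.693 and 0.665 without IGF2BP2 and 0.740 and 0.753 without IGF2BP3. This wider set includes scarce genes. The control cytoplasmic libraries of batches 3 and 4 had reads for 23388 and 23791 identifiers. Those without IGF2BP2 had 27101 and 26891, and those without IGF2BP3 had 27693 and 27959. Whether this difference affected the SD over all genes was not tested. The slope of a culture's ratios on those of control cultures 1 and 2, over the abundant genes, was 0.953 to 1.13 in the control, 0.677 and 0.674 without IGF2BP2 and 0.842 and 0.890 without IGF2BP3. A knockout value nearer 0 means that the fractions resembled each other more.

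As measured, 3634 genes were called (19.2% of those tested), 1670 with a higher ratio (8.84%) and 1964 with a lower one (10.4%). A change of at least 1 on the log2 scale was a fall in 776 of the called genes and a rise in 27. With upper quartile scaling in place of TMM, 1189 were higher and 2119 lower. The change followed the ratio in control cultures 1 and 2, which take no part in the contrast, with a slope of -0.44 (r = -0.48 across 18902 genes, which are not independent replicates). Genes with a control ratio between 0.5 and 1 had a median measured change of -0.34, those between 1 and 2 of -0.77, and those above 2 of -1.28. Genes with a control ratio between -1 and -0.5 had a median of 0.21.

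**Figure D1:**
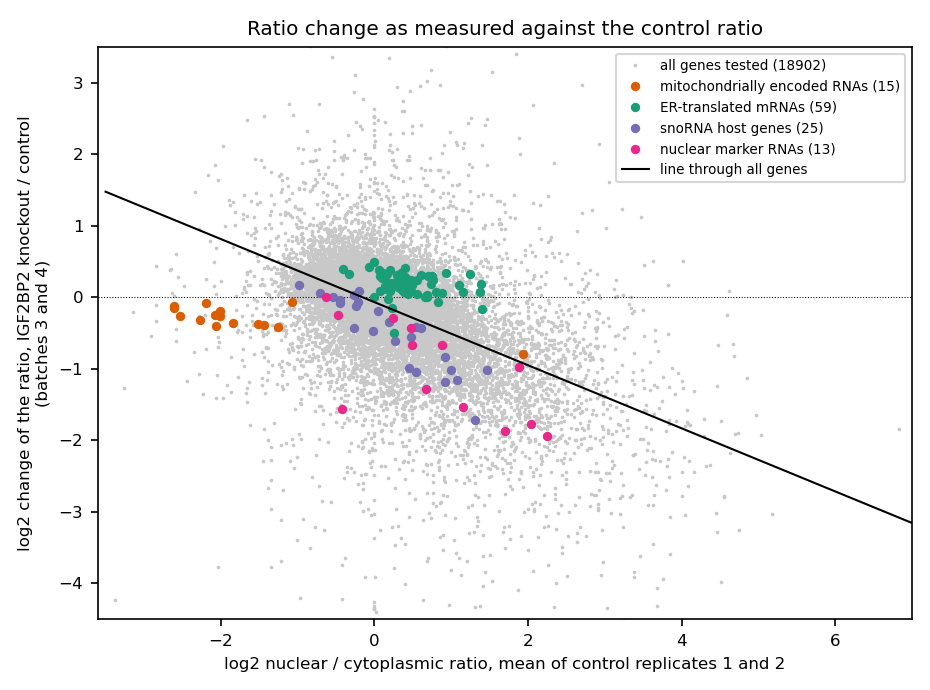
Measured log2 change of the nuclear over cytoplasmic ratio in the IGF2BP2 knockout (vertical) against the mean log2 ratio of control cultures 1 and 2 (horizontal). Each point is a gene, colours mark 4 gene lists and the line is the least squares line through all 18902 genes; of the ER-translated mRNAs (endoplasmic reticulum) 58 of 59 lie above it, and all 13 nuclear markers, 14 of 15 mitochondrially encoded RNAs and 24 of 25 small nucleolar RNA (snoRNA) host genes lie below it.

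To allow for the weaker separation, the value of this line was subtracted from each gene's change, and the remainder was tested. After the line, 2191 genes were called (11.6%), 1622 with a higher remainder (8.58%) and 569 with a lower one (3.01%). Without control culture 3 the count was 903 (1203 as measured), and without control culture 4 it was 1294 (2058 as measured). The balance depended on how the line was drawn. A lowess curve in place of the line left 1410 genes (7.46%; 718 or 3.8% higher and 692 or 3.66% lower), and a line fitted to genes of at least 10 CPM, with a slope of -0.40, left 1618 (8.56%; 688 or 3.64% higher and 930 or 4.92% lower). Genes called lower as measured and again after the line numbered 491, of which 443 were also called lower with the curve and with the line of abundant genes. Genes called higher as measured and after the line numbered 833, of which 378 passed with the curve and the abundant-gene line. A further 104 genes called higher after the line had a lower ratio as measured: they fell by less than the line predicts. Below, "as measured" and "after the line" name the 2 quantities, and each stands for a difference of log2 ratios.

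As measured, the clearest falls were in RNAs held in control nuclei: 33.4% of 781 genes with a control ratio above 2 fell. After the line 2.82% of these fell and 3.59% rose (median -0.06). Of genes with a control ratio between 1 and 2, 6.22% fell and 4.57% rose after the line (median -0.10). The markers below therefore do not stand for all such RNAs. Of 13 nuclear marker RNAs tested, 9 fell as measured and 0 rose (median -0.97, against 0.03 for all genes), and 7 fell after the line (median -0.39, against 0.07 for all genes). With the lowess curve 6 of 13 fell. Among all genes 10.4% fell as measured, 3.01% after the line and 3.66% with the curve. The median ratio of the list was 0.72 and 0.72 in the control of batches 3 and 4 and 0.03 and -0.24 in the knockout. The list thus moved from well above the typical gene to about its level. In the IGF2BP3 knockout the median was 0.09 and 0.29, so a drop below the control was seen in both knockouts. In cytoplasmic RNA alone, 9 of the 13 were called higher (31.6% of all genes were) and 0 lower. In nuclear RNA 4 were higher and 3 lower (27.7% and 27.6% of all genes), with a median change of 0.02. Without control culture 4, or without knockout culture 2, 4 of the 13 fell after the line.

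MALAT1, a noncoding RNA of nuclear speckles (ENSG00000251562, chr11:65497688-65506516), had log2 ratios of 2.22 and 2.24 in the control and 0.55 and 0.38 in the knockout. Its nuclear level was 106 and 115 CPM in the control and 120 and 114 CPM in the knockout, while its cytoplasmic level rose from 22.7 and 24.2 to 81.6 and 87.6 CPM. The groups overlapped in the nucleus and stood far apart in the cytoplasm. Its ratio fell by 1.77 as measured (SE 0.12, adjusted p = 5.7e-13) and by 0.80 after the line (adjusted p = 2.7e-05).

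NEAT1, the scaffold RNA of paraspeckles (chr11:65422774-65445540), had ratios of 0.78 and 0.57 in the control and -0.52 and -0.69 in the knockout. Unlike MALAT1 it was higher in both fractions of the knockout: nuclear RNA went from 254 and 222 to 389 and 354 CPM. Cytoplasmic NEAT1 went from 148 and 149 to 558 and 572 CPM, so the cytoplasm gained more. The ratio fell by 1.28 as measured (SE 0.11) and by 0.92 after the line (adjusted p = 2.5e-07). PURPL, a noncoding RNA induced by p53, had ratios of 2.06 and 1.96 in the control and 0.18 and 0.11 in the knockout, a fall of 1.05 after the line (SE 0.13, adjusted p = 4.8e-07).

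GABPB1-AS1, transcribed opposite the gene of a transcription factor subunit, went from 1.52 and 1.22 to 0.03 and -0.36. It fell by 0.96 after the line (SE 0.12, adjusted p = 1.3e-06). KCNQ1OT1, the antisense RNA of an imprinted locus, had ratios of 2.55 and 2.49 in the control and 0.79 and 0.47 in the knockout. Its fall after the line, by 0.89 (adjusted p = 0.019), was not called with the lowess curve (adjusted p = 0.056). MIAT, at about 1 CPM, fell by 1.68 after the line (SE 0.50, adjusted p = 0.022). NORAD, a cytoplasmic as well as nuclear RNA that binds PUMILIO proteins, differed by 0.01 as measured (adjusted p = 0.97) and by -0.20 after the line (adjusted p = 0.20). TUG1, FTX and PVT1 fell as measured, by 0.43, 0.97 and 0.67, and were not called after the line.

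Most other noncoding RNAs were not called, and those that were had mainly lower ratios. Among 1067 intergenic noncoding RNAs (lincRNAs) tested, 4 rose and 137 fell as measured (0.375% and 12.8%). After the line 8 rose and 57 fell (0.750% and 5.34%). Among 1318 antisense RNAs, 4 rose and 180 fell as measured (0.303% and 13.7%). After the line 6 rose and 69 fell (0.455% and 5.24%). In 14067 protein-coding genes the counts were 1643 and 1319 as measured (11.7% and 9.38%). They were 1595 and 327 after the line (11.3% and 2.32%). Over all genes 8.84% rose and 10.4% fell as measured, and 8.58% rose and 3.01% fell after the line. Over all levels, the share of lincRNAs and antisense RNAs that fell as measured was close to that of all genes, while rises were rare. The median after the line was -0.26 for lincRNAs, -0.22 for antisense RNAs and 0.11 for protein-coding genes. Most noncoding RNAs were scarce, and among those with a mean of at least 5 CPM falls were more frequent. Of 175 such lincRNAs 1 rose and 69 fell as measured (0.571% and 39.4%). After the line 6 rose and 32 fell (3.43% and 18.3%). Of 233 such antisense RNAs 1 rose and 89 fell as measured (0.429% and 38.2%). After the line 2 rose and 45 fell (0.858% and 19.3%). Of 11086 such protein-coding genes 14.7% rose and 10.5% fell as measured, and 14.2% and 2.74% after the line. Processed pseudogenes did not share this: of 629, 11 rose and 19 fell as measured (1.75% and 3.02%). Of the 61 with a mean of at least 5 CPM, 7 rose and 1 fell as measured (11.5% and 1.64%). After the line 4 of the 61 rose and 1 fell (6.56% and 1.64%). MIRLET7A1HG, a host transcript of let-7 microRNAs, went from 2.12 and 1.79 to 0.04 and -0.02 and fell by 1.41 after the line (SE 0.19, adjusted p = 3.0e-06). FBXL19-AS1 went from 0.55 and 0.35 to -1.09 and -1.37 and fell by 1.40 (SE 0.16, adjusted p = 1.0e-07). Whether the authors counted by strand is not given in the sources used here, so reads of an antisense RNA and of its partner cannot be told apart.

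Host genes of small nucleolar RNAs (snoRNAs) carry snoRNAs in their introns, and their spliced transcripts are largely noncoding. Of 25 tested, 11 fell and 0 rose as measured (median -0.43), with 10.4% of all genes lower and 8.84% higher. After the line 7 fell and 0 rose (median -0.22, with 3.01% of all genes lower). With the lowess curve 10 fell (3.66% of all genes did). Without control culture 3, 4 fell after the line. The list's median ratio was 0.35 and 0.06 in the control of batches 3 and 4 and -0.35 and -0.20 in the knockout, with no overlap. The IGF2BP3 knockout had -0.07 and -0.11, also below the control.

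SNHG1 (chr11:62851988-62855914) led the host genes. Its ratios were 1.10, 1.53, 1.84 and 1.59 in control cultures 1 to 4 and 0.06 and -0.06 in the knockout. Nuclear SNHG1 dropped from 374 and 320 to 256 and 237 CPM and cytoplasmic SNHG1 rose from 104 and 107 to 246 and 247 CPM. Every control ratio was therefore more than 1 above both knockout ratios, and both fractions contributed. The fall was by 1.72 as measured (SE 0.10) and by 1.07 after the line (adjusted p = 5.1e-09). SNHG11, SNHG20, SNHG15, GAS5, SNHG17 and SNHG3 also fell after the line, by 0.42 to 0.73. SNHG16, SNHG8, DANCR and ZFAS1 were not called in either quantity and had changes after the line of -0.19, -0.02, -0.16 and -0.10.

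The mRNAs of splicing regulators that are known to detain introns split in both directions. Of 44 tested, 3 rose and 23 fell as measured (8.84% and 10.4% of all genes did). After the line 4 rose and 7 fell (8.58% and 3.01% of all genes), with a median of -0.04. The balance rested on single cultures: it was 3 and 1 without control culture 4, 7 and 4 without knockout culture 2 (median 0.09), 2 and 6 without control culture 3, 4 and 12 without control culture 2, and 3 and 11 without knockout culture 1. DDX39B, the helicase that loads the export machinery onto mRNA (ENSG00000198563, chr6:31530219-31542448), had ratios of 1.40, 1.60, 1.70 and 1.47 in the 4 control cultures and -0.12 and -0.20 in the knockout. Its nuclear level went from 439 and 382 to 269 and 259 CPM, and its cytoplasmic level from 135 and 138 to 293 and 297 CPM. The mRNA thus went from well above the typical gene in every control culture to slightly below it in both knockout cultures. The ratio fell by 1.75 as measured (SE 0.10, adjusted p = 9.1e-15) and by 1.02 after the line (adjusted p = 8.2e-09). PNISR and NKTR, both of which encode proteins with arginine-serine repeats, fell by 0.53 and 0.48 after the line. CCNL2, a cyclin of splicing kinases, fell by 1.36 as measured and was not called after the line (-0.26, adjusted p = 0.10).

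Members of the same list also rose. SNRNP70, the U1 70K protein (chr19:49085419-49108605), had ratios of 0.44, 0.30, 0.39 and 0.24 in the control and 1.05 and 1.12 in the knockout. Its nuclear level rose from 566 and 526 to 696 and 724 CPM while its cytoplasmic level fell from 430 and 446 to 337 and 332 CPM. The nucleus was higher and the cytoplasm lower in both knockout cultures, with no overlap. The ratio rose by 0.77 as measured (adjusted p = 4.4e-07) and by 1.00 after the line (SE 0.10, adjusted p = 8.5e-09). LUC7L2, a protein associated with U1, had ratios of -0.02 and 0.04 in the control and 0.68 and 0.51 in the knockout, a rise of 0.58 as measured (adjusted p = 0.00011) and of 0.66 after the line. Its paralogue LUC7L3 went the other way, with a fall of 1.07 as measured (adjusted p = 2.2e-09) and of 0.48 after the line (adjusted p = 0.0024). A further paralogue, LUC7L, was not called (-0.14 and 0.20). U2AF1L4, a splicing factor related to U2AF1 that is not in the list, had the largest fall after the line of all protein-coding genes named. Its ratios were 2.43 and 2.65 in the control and 0.14 and 0.11 in the knockout, at a mean of about 8 CPM, and it fell by 1.75 after the line (SE 0.24, adjusted p = 3.1e-06).

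**Figure D2:**
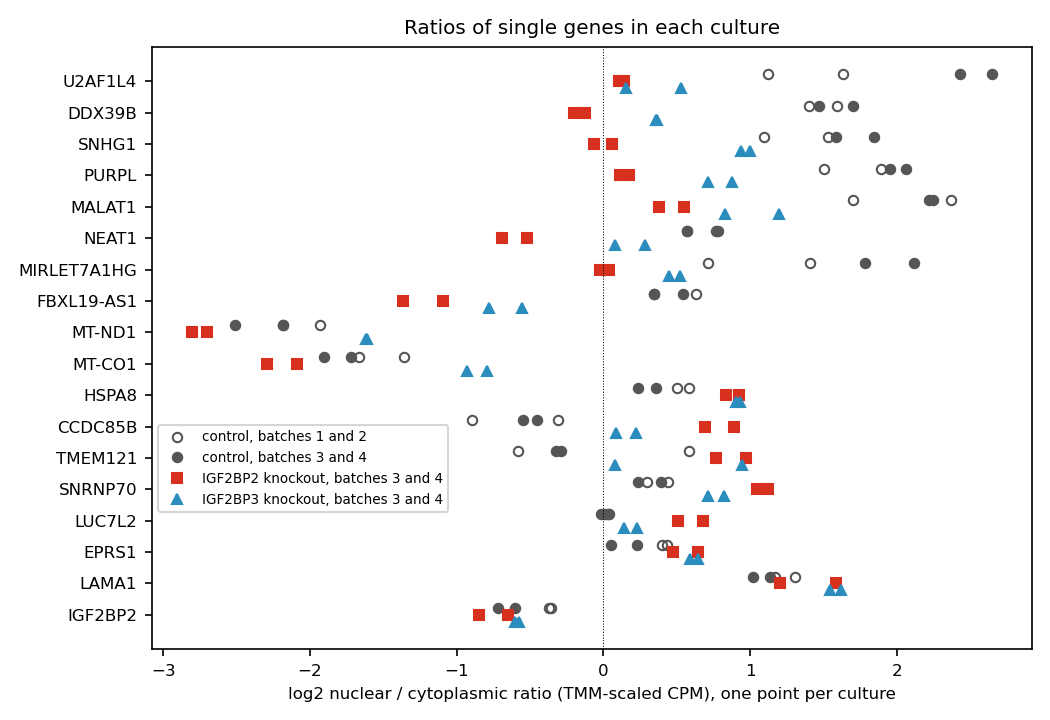
Log2 nuclear over cytoplasmic ratio of 18 genes, 1 point per culture, from TMM-scaled CPM. Control cultures of batches 1 and 2 are open circles, control cultures of batches 3 and 4 filled circles, and squares and triangles are the IGF2BP2 and IGF2BP3 knockouts of batches 3 and 4; DDX39B lies between 1.40 and 1.70 in the control and at -0.12 and -0.20 in the IGF2BP2 knockout, and SNRNP70 moves from 0.24 to 0.44 up to 1.05 and 1.12.

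Messages translated on the endoplasmic reticulum mostly lay above the line. The first 30 codons of 3 of them are shown with those of EPRS1 and ACTB, which are translated in the cytosol, because the signal peptide that directs ribosomes to the membrane is encoded there. Codons with T in the middle, which encode hydrophobic residues, are in capitals (sequences from GENCODE 29 on GRCh38, coding strand from the start codon).
LAMA1: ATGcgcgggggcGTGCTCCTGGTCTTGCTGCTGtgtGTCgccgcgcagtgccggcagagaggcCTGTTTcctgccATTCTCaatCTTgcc
FN1: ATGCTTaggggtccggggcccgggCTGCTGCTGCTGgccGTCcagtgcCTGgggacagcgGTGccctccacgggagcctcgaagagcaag
FBN2: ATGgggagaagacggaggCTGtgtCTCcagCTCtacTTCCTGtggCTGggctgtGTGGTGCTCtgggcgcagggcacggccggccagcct
EPRS1: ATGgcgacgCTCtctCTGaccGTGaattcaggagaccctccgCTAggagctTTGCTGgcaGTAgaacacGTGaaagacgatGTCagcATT
ACTB: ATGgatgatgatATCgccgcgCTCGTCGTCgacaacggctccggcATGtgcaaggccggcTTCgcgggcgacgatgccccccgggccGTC
The longest unbroken run of capital codons was 7 in LAMA1 (chr18:6941744-7117814, minus strand), 4 in FN1 (chr2:215360440-215436172, minus strand) and 3 in FBN2 (chr5:128257909-128659185, minus strand). It was 2 in EPRS1 (chr1:219968601-220046658, minus strand) and 3 in ACTB (chr7:5527147-5563784, minus strand). The share of capital codons after the first was 44.8% in LAMA1, 27.6% in FN1, 31.0% in FBN2, 34.5% in EPRS1 and 24.1% in ACTB, so it did not separate these 5 by site of translation. Over the 59 messages of the list, a median of 34.5% of the codons after the first had T in the middle, against 24.1% over 14014 protein-coding genes with such a sequence.

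Of these 59 messages, 45 rose after the line and 0 fell (median 0.46, against 0.07 for all genes tested and 0.11 for protein-coding genes). As measured 17 rose and 0 fell (median 0.18), with 8.84% of all genes higher and 10.4% lower. After the line those shares were 8.58% and 3.01%. With the lowess curve 32 rose, and with the line of abundant genes 30 rose, with 0 falls in both. Without control culture 3, 29 rose. The list's median ratio was 0.32 and 0.28 in the control of batches 3 and 4 and 0.43 and 0.46 in the knockout. Control cultures 1 and 2 had 0.43 and 0.35, which overlaps the knockout, and the IGF2BP3 knockout had 0.59 and 0.73. The members' ratios thus moved little, in a range of control ratios where the median gene changed by -0.01 (0 to 0.5) or -0.34 (0.5 to 1).

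LAMA1, a laminin chain of basement membranes, had ratios of 1.31, 1.17, 1.02 and 1.13 in the control and 1.21 and 1.59 in the knockout. The groups overlapped. It was not called as measured (0.32, SE 0.16, adjusted p = 0.15) and its change after the line was 0.93 (adjusted p = 9.3e-05). FN1, fibronectin, had ratios of 1.42, 1.36, 1.28 and 1.28 in the control and 1.43 and 1.51 in the knockout. Its level rose in both fractions, by 1.63 in the nucleus and 1.41 in the cytoplasm on the log2 scale. Its change after the line was 0.87 (SE 0.12, adjusted p = 3.1e-06), against 0.19 as measured (adjusted p = 0.27). FBN2, a fibrillin of elastic fibres, had ratios of 0.81 and 0.96 in the control of batches 3 and 4 and 1.11 and 1.32 in the knockout, and rose in both quantities, by 0.33 as measured (adjusted p = 0.029) and by 0.81 after the line (adjusted p = 3.6e-06). The chaperone HSPA5 rose by 0.64 after the line and the amyloid precursor APP by 0.64, and both also rose as measured, by 0.31 and 0.40. The atypical cadherin FAT3 had the lowest value of the list, -0.32 after the line (adjusted p = 0.33).

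**Figure D3:**
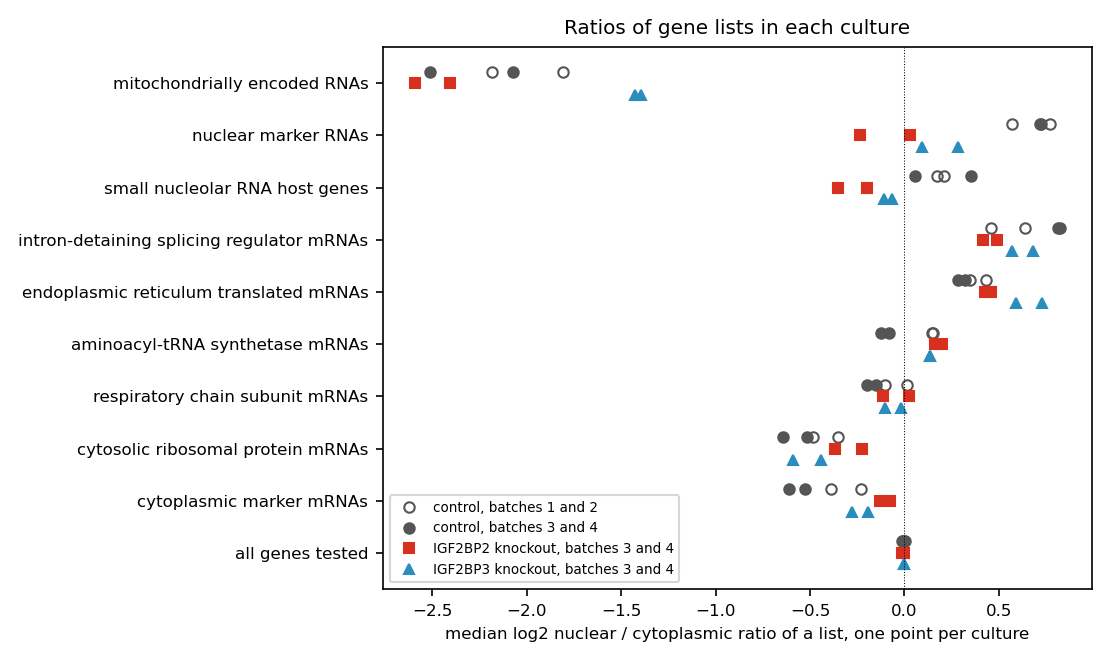
Median log2 nuclear over cytoplasmic ratio of 9 gene lists and of all genes tested, 1 point per culture. Open circles are control cultures of batches 1 and 2, filled circles control cultures of batches 3 and 4, squares and triangles the IGF2BP2 and IGF2BP3 knockouts. Nuclear markers lie between 0.57 and 0.77 in the control. They drop to 0.03 and -0.24 in the IGF2BP2 knockout and to 0.09 and 0.29 in the IGF2BP3 knockout. Mitochondrially encoded RNAs have their highest values in the IGF2BP3 knockout and their lowest value in the IGF2BP2 knockout.

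Messages for several cytosolic enzymes had higher ratios as measured. Of the 20 cytosolic aminoacyl-tRNA synthetases, which attach amino acids to tRNAs, 11 rose and 0 fell as measured (median 0.29). The shares over all genes were 8.84% and 10.4% as measured, and 8.58% and 3.01% after the line. After the line 15 rose (median 0.40), with the lowess curve 8, with the line of abundant genes 9 and without control culture 3, 5. The list's median ratio was -0.12 and -0.08 in the control of batches 3 and 4, 0.20 and 0.16 in the knockout and 0.15 and 0.14 in control cultures 1 and 2, so the rise was against the controls of the same batches and was small against those of batches 1 and 2. EPRS1, which charges 2 amino acids, had ratios of 0.05 and 0.23 in the control and 0.65 and 0.47 in the knockout. It was lower in both fractions, from 575 and 609 to 480 and 437 CPM in nuclei and from 554 and 519 to 306 and 315 CPM in cytoplasm. The drop was steeper in the cytoplasm, and the ratio rose by 0.42 as measured (SE 0.10, adjusted p = 0.0034) and by 0.67 after the line (adjusted p = 2.3e-05). QARS1 and AARS1 rose by 0.58 and 0.56 after the line.

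Of 16 cytoplasmic marker mRNAs (glycolytic enzymes, tubulins, actin, elongation factors and chaperones), 13 rose and 0 fell as measured (median 0.39), and 7 rose after the line (median 0.31), 13 without control culture 2 and 12 without IGF2BP3 knockout culture 1. With the lowess curve 5 of the 16 rose (median 0.25), and with the line of abundant genes 5 (median 0.23). Without control culture 3 the median after the line was 0.29. Among all genes 8.84% rose as measured, 8.58% after the line, 3.8% with the curve and 3.64% with the line of abundant genes. All 16 markers were lower in knockout cytoplasm (median -1.05), and 14 were lower in nuclei (median -0.60). The shares of all genes were 32.5% and 27.6%. HSPA8, the constitutive HSC70 chaperone (chr11:123057489-123063230), had ratios of 0.58, 0.50, 0.24 and 0.36 in the control and 0.92 and 0.83 in the knockout. Its cytoplasmic level dropped from 704 and 671 to 270 and 288 CPM and its nuclear level from 829 and 860 to 512 and 513 CPM. Both fractions were lower without overlap, the cytoplasm more so, and the ratio rose by 0.89 after the line (SE 0.10, adjusted p = 1.3e-07). HSP90AB1 rose by 0.65 and PGK1 by 0.56 after the line. GAPDH and ACTB rose as measured, by 0.39 and 0.45, and were not called after the line (0.25 and 0.31).

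Of 78 cytosolic ribosomal protein mRNAs, 27 rose and 1 fell as measured (median 0.25), but 4 rose after the line and 1 with the lowess curve. The rise was thus frequent as measured (8.84% of all genes rose) and below the share of all genes after the line (8.58%). Leaving out 1 culture gave between 1 (without IGF2BP2 knockout culture 2) and 22 (without control culture 2). RPLP1, an acidic stalk protein, was called higher after the line (0.59, adjusted p = 0.0016), yet its ratios in the knockout were -0.00 in batch 3 and 0.70 in batch 4, beside -0.05 and -0.16 in the control. The rise thus came mostly from 1 knockout culture. Of 76 nuclear-encoded subunits of the respiratory chain and ATP synthase, 20 rose and 2 fell as measured, 22 rose and 0 fell after the line (median 0.24), and 7 rose and 1 fell with the curve. Without control culture 3 the risers after the line numbered 7, without control culture 4, 14, and without control culture 2 or IGF2BP2 knockout culture 1, 34 and 35. SDHA, the flavoprotein of complex II, went from 0.55 and 0.56 to 0.88 and 0.90 and rose by 0.76 after the line (SE 0.12, adjusted p = 2.2e-05). In control cultures 1 and 2 SDHA stood at 0.84 and 0.83.

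**Figure D4:**
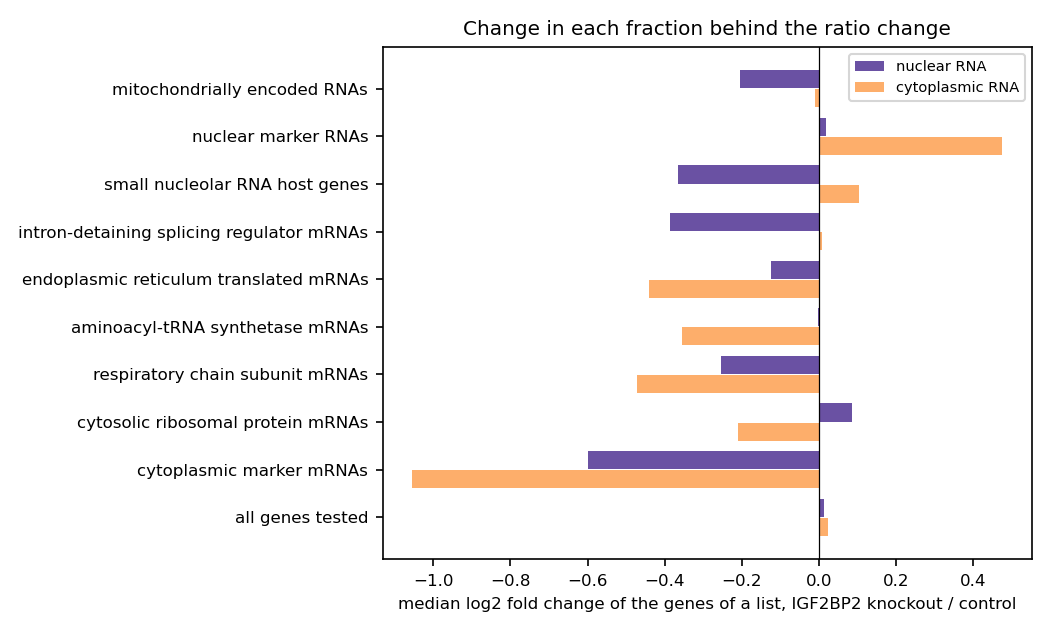
Median log2 fold change of 9 gene lists and of all genes tested in nuclear RNA (purple) and cytoplasmic RNA (orange), IGF2BP2 knockout over control, batches 3 and 4. Nuclear markers gained in cytoplasm (0.48) with a nuclear median of 0.02, whereas cytoplasmic markers lost more in cytoplasm (-1.05) than in nuclei (-0.60).

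The fractions themselves changed widely. In nuclear RNA 10091 of 18247 genes were called between knockout and control (55.3%; 5052 higher and 5039 lower). In cytoplasmic RNA 11550 of 18008 were called (64.1%; 5695 higher and 5855 lower, or 7270 and 4493 with upper quartile scaling). A ratio change therefore sat on top of large changes in level for many of the named genes.

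RNAs encoded by mitochondrial DNA had the lowest ratios of all lists and gave the result most sensitive to how the separation was removed. Of 15 tested, 7 fell and 0 rose as measured (median -0.26, with 10.4% of all genes lower). After the line 14 fell (median -1.07, with 3.01% of all genes lower), but 5 fell with the lowess curve (median -0.26, with 3.66%). Their control ratios lay near -2, where the line predicts a rise (0.84 for MT-ND1) and where few genes are found: 50 genes had a control ratio below -2, some of them mitochondrial, and their median measured change was -0.22. The list's median ratio was -1.81, -2.18, -2.51 and -2.08 in control cultures 1 to 4 and -2.59 and -2.41 in the knockout, so the knockout overlapped the lowest control culture.

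MT-ND1, a subunit of complex I (chrM:3307-4262), had ratios of -1.93, -2.18, -2.51 and -2.18 in the control and -2.81 and -2.70 in the knockout. Its nuclear level was 807 and 955 CPM in the control and 902 and 921 CPM in the knockout, and its cytoplasmic level rose from 4608 and 4338 to 6308 and 5994 CPM. The ratio lay below all 4 control cultures and fell in both quantities, by 0.41 as measured (SE 0.11, adjusted p = 0.0076) and by 1.25 after the line, and by 0.40 with the curve (adjusted p = 0.018). MT-CO1, MT-CO3, MT-CYB, MT-ATP6, MT-RNR2 and MT-ND6 also fell as measured, by 0.38, 0.39, 0.35, 0.31, 0.42 and 0.79. MT-ND4, with ratios of -3.21 and -2.73 in the control and -3.14 and -3.05 in the knockout, changed by -0.13 as measured (adjusted p = 0.48) and by -1.21 after the line. MT-ND6, the single message made from the other strand of the mitochondrial genome, was the exception: it had positive ratios of 1.13 and 1.10 in the control and 0.39 and 0.29 in the knockout and was not called after the line (0.13, adjusted p = 0.71). Without knockout culture 2, or without control culture 3, it was called higher (0.56 and 0.51). The leucine tRNA MT-TL1 fell by 1.62 after the line and by 0.72 as measured. MTND2P28, a nuclear copy of mitochondrial sequence, fell by 1.52 after the line and was not called with the curve (-0.33, adjusted p = 0.21), and reads could be exchanged between such copies and the mitochondrial genes.

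The IGF2BP genes did not pass the test. IGF2BP2 had ratios of -0.72 and -0.60 in the control and -0.65 and -0.85 in the knockout, a change of -0.09 as measured (SE 0.12, adjusted p = 0.64) and of -0.18 after the line (adjusted p = 0.36). IGF2BP1 changed by 0.19 (adjusted p = 0.17) and IGF2BP3 by 0.06 (adjusted p = 0.76) as measured. All 3 fell in both fractions. The log2 changes for IGF2BP2, IGF2BP1 and IGF2BP3 were -1.39, -0.39 and -0.44 in the nucleus and -1.34, -0.62 and -0.53 in the cytoplasm.

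Of 33 mRNAs described as IGF2BP targets, 7 rose and 1 fell as measured, and 4 rose and 1 fell after the line (median 0.12). Without control culture 3 or 4, 2 and 3 rose and 0 fell, and 7 rose and 0 fell without knockout culture 2 or without either IGF2BP3 knockout culture. After the line these counts are near the shares over all genes (8.58% higher and 3.01% lower). As measured 8.84% of all genes rose and 10.4% fell. HK2, a hexokinase, had ratios of -0.11 and 0.05 in the control and 0.38 and 0.37 in the knockout, with no overlap. It rose by 0.40 as measured (adjusted p = 0.0090) and by 0.51 after the line (adjusted p = 0.0017). The proliferation gene MKI67 had a measured change of 0.02 and a change after the line of 0.58 (adjusted p = 0.00034), and the actin bundler FSCN1 rose in both, by 0.61 and 0.44. IGF2, a growth factor at a mean of about 5 CPM, was called lower after the line (-0.95, SE 0.32, adjusted p = 0.049) and not as measured (-0.45, adjusted p = 0.34). Among 19 writers, erasers and readers of N6-methyladenosine, 3 rose and 3 fell as measured, and 5 rose and 0 fell after the line, with 1 rise without control culture 3, 7 rises without control culture 2 and 3 rises without knockout culture 1. With the lowess curve 2 of the 19 rose and 0 fell (3.8% and 3.66% of all genes did). With the line of abundant genes 1 rose and 1 fell (3.64% and 4.92% of all genes). ZC3H13 and VIRMA, subunits of the methyltransferase complex, changed by 0.67 and 0.43 after the line and were not called as measured. RBM15 fell by 0.66 and METTL3 by 0.36 as measured, and neither was called after the line.

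Of 60 genes of mRNA export and the nuclear pore, 11 rose and 1 fell as measured and 19 rose and 2 fell after the line (median 0.23), or 6 and 2 without control culture 3. The scaffold nucleoporin NUP133 went from 0.07 and 0.23 to 0.67 and 0.58 and rose by 0.68 after the line (SE 0.10, adjusted p = 1.7e-05). NUP160, of the same subcomplex, rose by 0.67. With the lowess curve 8 of the 60 rose and 1 fell (median 0.16). With the line of abundant genes 9 rose and 2 fell (median 0.14). Beside this list and the next, 8.84% of all genes rose and 10.4% fell as measured. After the line 8.58% of all genes rose and 3.01% fell. The shares were 3.8% and 3.66% with the curve and 3.64% and 4.92% with the line of abundant genes. Of 58 interferon-stimulated genes, 7 rose and 2 fell as measured and 13 rose and 0 fell after the line, 6 with the curve and 4 without control culture 3. HERC5, a ligase for the ubiquitin-like protein ISG15, went from 0.07 and 0.29 to 0.80 and 0.63, a rise of 0.53 as measured (adjusted p = 0.0065) and of 0.68 after the line. IFIT3, at about 1 CPM, was called higher in both quantities, by 1.68 as measured (SE 0.58, adjusted p = 0.038), and not with the curve (adjusted p = 0.064).

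Of 39 genes of the integrated stress response, 9 rose and 4 fell as measured and 14 rose and 1 fell after the line, or 5 and 1 without control culture 3. With the lowess curve 7 rose and 1 fell, and with the line of abundant genes 7 rose and 2 fell. In the fractions 33 of these 39 were higher in nuclear RNA and 30 in cytoplasmic RNA. Over all genes 27.7% and 31.6% were. More members were thus called for level than for ratio. That also held over all genes: 55.3% were called in nuclear RNA, 64.1% in cytoplasmic RNA and 19.2% for the measured ratio. ALDH18A1, which makes a proline precursor, had the clearest value after the line, 1.14 (SE 0.10, adjusted p = 1.1e-09). It was not called as measured (0.20, adjusted p = 0.16), since its ratio was 1.37 and 1.28 in the control and 1.49 and 1.57 in the knockout at control ratios of 2.02 and 1.91 in batches 1 and 2. Of 38 immediate early genes, 5 rose and 2 fell as measured and 3 rose after the line (median 0.07; 0 without control culture 4, 1 without control culture 3 and 5 without control culture 2), while 32 were higher in nuclear and 33 in cytoplasmic RNA. Over all genes 8.84% rose as measured and 8.58% after the line, and the list's share after the line is near that. With the curve, and with the line of abundant genes, 1 of the 38 rose and 3 fell. In the fractions 27.7% of all genes were higher in nuclear and 31.6% in cytoplasmic RNA. FOSB, for example, went from 5.27 and 5.07 to 33.8 and 36.3 CPM in nuclei and from 3.05 and 3.54 to 15.5 and 16.6 CPM in cytoplasm, and its ratio change was not called as measured (0.47, adjusted p = 0.12) and was called after the line (0.78, adjusted p = 0.013). Of 30 replication-dependent histone genes, edgeR called 0 in either quantity. At an unadjusted p under 0.05 there were 6 as measured and 5 after the line, and DESeq2 and limma-voom called 0 after the line. These mRNAs lack the poly(A) tail that the libraries select.

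Among single protein-coding genes outside the lists, NAPRT, an enzyme of NAD synthesis, was much lower in both fractions and more so in the cytoplasm. It went from 67.6 and 60.9 to 6.46 and 8.43 CPM in nuclei and from 21.6 and 25.9 to 1.90 and 0.922 CPM in cytoplasm. Its ratios were 1.64 and 1.23 in the control and 1.75 and 3.16 in the knockout, so the 2 knockout cultures differed widely. The ratio rose by 0.96 as measured (SE 0.25, adjusted p = 0.0071) and by 1.58 after the line. CCDC85B (chr11:65890112-65891635) had ratios of -0.55 and -0.45 in the control and 0.69 and 0.89 in the knockout, and TMEM121 had -0.29 and -0.32 against 0.77 and 0.97. Both rose in both quantities, CCDC85B by 1.30 as measured (SE 0.17, adjusted p = 7.9e-07) and TMEM121 by 1.18 (SE 0.25, adjusted p = 0.00076). The mitochondrial carrier SLC25A45 went from 1.21 and 0.93 to -0.34 and -0.19 and fell by 1.13 after the line (SE 0.22).

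Several genes called higher after the line were not called as measured. RHBDL1, PDIA2 and MAMDC4 had measured changes of 0.25, -0.07 and -0.55 (adjusted p = 0.74, 0.91 and 0.19) and 1.69, 1.20 and 1.07 after the line. Their control ratios exceeded 2, and their cytoplasmic levels were at most 2.60 CPM, so their values rest on few reads. LINC00342, a noncoding RNA, had ratios of 3.36 and 3.38 in the control and 3.64 and 3.12 in the knockout, a change of 0.00 as measured and of 1.45 after the line. The glycine-cleavage enzyme GLDC had 0.34 as measured (adjusted p = 0.083) and 1.13 after the line. LINC02986 and the pseudogene GAPDHP1, which shares sequence with GAPDH, were called after the line at 0.77 and 0.73 but not with the curve (adjusted p = 0.11 and 0.056).

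The IGF2BP3 knockout of the same batches shared the control. Against that control it had 2250 of 18902 genes called as measured, 1040 higher and 1210 lower. It was therefore compared with the IGF2BP2 knockout directly. As measured, 353 genes differed (1.87%; 114 or 0.603% higher and 239 or 1.26% lower in the IGF2BP2 knockout), and with a line of its own removed 44 differed (0.233%; 11 or 0.0582% higher and 33 or 0.175% lower). Leaving out control culture 3 or 4 gave 77 or 80 genes, leaving out IGF2BP2 knockout culture 1 or 2 gave 132 or 490. The balance turned without those: 73 were higher and 59 lower without culture 1, and 273 higher and 217 lower without culture 2. With no filter on low counts 149 were higher and 79 lower. Of the 44 genes, 15 were encoded by mitochondrial DNA and 3 were nuclear copies of mitochondrial genes, and all of these were lower in the IGF2BP2 knockout. Of the 15 genes of the mitochondrial list, 14 were called (median -1.46 with the line removed and -1.16 as measured). MT-CO1 had ratios of -1.90 and -1.72 in the control, -2.29 and -2.09 without IGF2BP2 and -0.93 and -0.80 without IGF2BP3. The control thus lay between the knockouts, and the direct difference was -1.33 as measured and -1.54 with the line removed (adjusted p = 2.7e-12). MT-RNR1, the small ribosomal RNA, had the smallest called difference of the list, -0.74 (adjusted p = 0.00018).

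SNHG1 and NEAT1 were also lower in the IGF2BP2 than in the IGF2BP3 knockout. SNHG1 stood at 0.06 and -0.06 against 0.94 and 1.00, a difference of -0.75 with the line removed (adjusted p = 1.1e-05), with the control at 1.84 and 1.59. NEAT1 stood at -0.52 and -0.69 against 0.08 and 0.29, a difference of -0.67 (adjusted p = 0.00018). MIR17HG, the host transcript of the miR-17 cluster, had ratios of 0.35 and -0.12 against 0.94 and 1.11 (difference -0.65, adjusted p = 0.016). Among the genes higher in the IGF2BP2 knockout, NAPRT differed by 1.47 (adjusted p = 0.00083), SPTBN1, a spectrin, by 0.74 (adjusted p = 4.3e-05) and RPL26 by 0.47 (adjusted p = 0.019). SPTBN1 differed by 0.29 as measured, which was not called. DDX39B, MALAT1 and PURPL were lower as measured (-0.52, -0.55 and -0.66, adjusted p = 0.0023, 0.0043 and 0.0012) and not called with the line removed (-0.27, -0.22 and -0.38). The aminoacyl-tRNA synthetases had a median difference of 0.04, and 1 of the 59 messages translated on the endoplasmic reticulum was called with the line removed (FAT3, -0.62, adjusted p = 0.029), while 7 were lower and 0 higher as measured (median -0.19, with 1.26% of all genes lower).

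**Figure D5:**
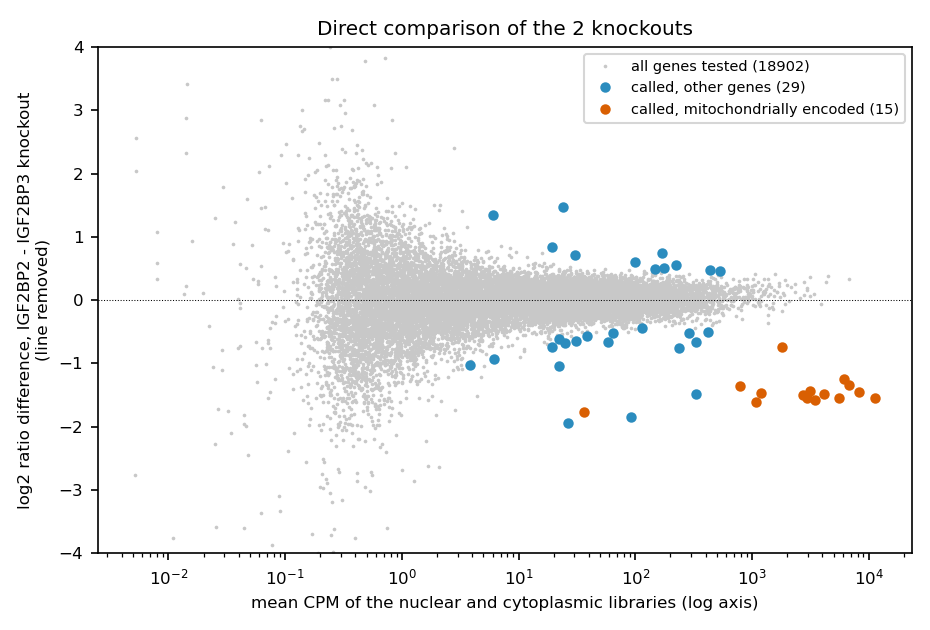
Difference of log2 nuclear over cytoplasmic ratios between the IGF2BP2 and the IGF2BP3 knockout after removal of a line (vertical) against mean CPM on a log axis (horizontal); each grey point is a gene, coloured points are the 44 called genes. The 15 called RNAs encoded by mitochondrial DNA lie between -0.74 and -1.77. The lowest, MT-TL1, has a mean of 36.0 CPM, and the others form a group of abundant RNAs of at least 790 CPM.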

How the data were processed

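Per the labels' protocols, nuclear and cytoplasmic poly(A) RNA was sequenced. The values used were raw counts per gene that the authors deposited as one table per fraction. The submitters' processing notes name STAR, featureCounts, DESeq2 1.44.0 and GRCh38 without roles, and whether reads were counted by strand is not given in the sources used here. The tables held 62703 Ensembl identifiers, 58279 of them in GENCODE 29, the source of gene types, positions and coding starts; 20403 had no symbol (0.368% to 0.687% of a library's counts) and stayed in the test.

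The quasi-likelihood test of edgeR 4.0.16 (with limma 3.58.1 in R 4.3.3) was fitted to 12 libraries: the nuclear and cytoplasmic libraries of the control, IGF2BP2 knockout and IGF2BP3 knockout in batches 3 and 4. It used TMM, the default filter by group, a term for each culture, a fraction term, a batch by fraction term and a fraction by knockout term (2 residual and 34.0 prior degrees of freedom, biological coefficient of variation 5.05%). The standard error is the log2 change divided by the square root of F. The least squares line of the change on the mean ratio of control cultures 1 and 2 entered as an offset per gene. The IGF2BP1 knockout was left out: its nuclear library 1 and total library 2 held identical values. Single fractions were tested with a batch term. Log2 CPM used a prior count of 0.5, and the lowess span was 0.3. The scripts were tested on simulated counts with a known slope and known changes. After the line, 97 of 100 changes of 1 and 52 of 100 changes of 0.5 were called in the right direction. Of the 167 genes called there, 18 were false. The changed genes averaged at least 100 counts, the simulated compression was an exact line, and no batch or culture effect was put in. These rates need not hold for the measured libraries.

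Cultures were paired by the batch given in the labels. Across 10493 genes, the difference between batches 3 and 4 correlated at -0.23 between control and IGF2BP2 knockout and at 0.08 between control and IGF2BP3 knockout.

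The samples and gene lists were chosen with earlier results of these data known. Named genes were those called after the line, with a symbol, the same sign in both batches and a mean of at least 5 CPM: the 8 protein-coding and 4 other genes that rose most and the same numbers that fell most, up to 3 called genes of each list, the IGF2BP genes and the fraction markers. One gene chosen by this rule is not reported here. Other genes named (such as GAS5, PNISR, NKTR, LUC7L3, LUC7L, CCNL2, HSPA5, APP, FAT3, FSCN1, RBM15, METTL3, MIR17HG, SPTBN1 and RPL26) were picked after their values were seen. Alternatives changed the scaling, the filter, the tool (DESeq2 1.42.0, limma-voom), the block, the libraries and the removal of the separation.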

Additional observations from a re-analysis of the deposited data

Results flagged for a closer look

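Of 123 ratios and list medians examined over the 4 control cultures, 2 had a culture that stood apart from the other 3; chance alone flags about 1 in 20 such groups. The ratio of KCNQ1OT1 was 2.00 in control culture 1, against 2.50, 2.55 and 2.49 in cultures 2 to 4. The ratio of MT-RNR2 was -1.63 in control culture 3, against -1.23, -1.29 and -1.24 in cultures 1, 2 and 4.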

How the results depend on the processing

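The count of genes after the line (2191) became 4927 with no filter, 578 with DESeq2, 3501 with no replicate block, 1410 with the lowess curve, 3634 with no removal, and 903 to 2995 when a culture was left out. The count as measured (3634) became 908 with DESeq2 (248 higher, 660 lower) and 1203 to 3634 without a culture, and it stayed within 1.5 times under the other planned settings. The batch differences of control and knockout ran opposite, so a crossed pairing was added after seeing the data, and it gave 4115 genes after the line and 5716 as measured. The slope (-0.44) was -0.34 with no filter, -0.40 with limma-voom, -0.40 from genes of at least 10 CPM, and -0.52 to -0.36 without a culture. The count between IGF2BP2 and IGF2BP3 knockouts (44) was 228 with no filter, 21 with DESeq2, 320 with no replicate block and 30 to 490 without a culture. Nuclear RNA gave 7218 to 10607 genes and cytoplasmic RNA 10313 to 11375 without a library. The cause of these shifts was not tested, except that leaving out a culture leaves fewer samples.

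Of 83 named genes called after the line, all kept their direction and call with RLE, upper quartile, no replicate block and the 8 libraries alone, 51 with DESeq2, 58 with the curve, 68 with the line of abundant genes and 55 with no removal. Signs turned with no removal for PDIA2 (-0.065), MAMDC4 (-0.55), COX6A1 (-0.25), NORAD (0.0075) and MT-ND6 (-0.79). With no filter they turned for IGF2BP2 (0.013), NORAD (0.019) and JPX (0.020), with the curve for IGF2BP3 (-0.018) and FTX (0.023), and with the line of abundant genes for MT-ND6 (-0.048). Leaving out each culture in turn, values on both sides of 0 occurred for MT-ND6 (-0.27 to 0.56), FTX (-0.28 to 0.13), PVT1 (-0.36 to 0.057), JPX (-0.30 to 0.11) and TUG1 (-0.36 to 0.089). Cytoplasmic levels of about 1 CPM limit RHBDL1, MIAT and IFIT3.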

Other observations

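Protein-coding genes with many exons were called higher after the line more often than genes with few. The share was 4.85% for 1 to 4 exons and 24.5% for 18 or more. As measured the shares were 10.8% and 9.96%, and the median control ratio of these groups was -0.23 and 0.30, so the gradient appeared with the removal of the line.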
